A study of Danio rerio with 8 samples.

Results

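Transducin is the heterotrimeric G protein that carries the light signal from an opsin to a phosphodiesterase in vertebrate photoreceptors. A photon activates the opsin, the opsin loads the alpha subunit with GTP, and the alpha subunit leaves its beta and gamma partners and relieves the inhibition of phosphodiesterase PDE6, which lowers cyclic GMP and closes the photoreceptor's cation channels. Rods and cones use separate alpha and gamma genes, and in mammals also separate beta genes. The zebrafish pineal organ is itself photosensitive and its photoreceptors use components of this cascade. In the zebrafish retina, mutants of the T-box factor gene tbx2b form extra rods in place of UV cones, which is the background for setting rod beside cone subunits here.

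The members were the rows of the authors' table whose symbol is that of a rod or cone transducin subunit, 7 of 32433 genes. The rod subunits were gnat1 (alpha) and gngt1 (gamma). The cone subunits were gnat2 (alpha), gnb3a and gnb3b (beta), and gngt2a and gngt2b (gamma). All 7 were tested by the authors, and none was lost to a filter on low values.

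RNA came from sorted Kaede-positive cells from heads of the zebrafish line Tg(flhBAC:kaede)vu376 at 24 to 26 hours post-fertilization. In this line a bacterial artificial chromosome with the regulatory sequence of flh, a homeobox gene of the pineal anlage, drives a fluorescent protein, so a sorted cell is one in which that transgene was active and need not be a photoreceptor. The wild-type group had 4 libraries from embryos that received no injection. The knockdown group had 4 libraries from embryos given a morpholino that blocks splicing of tbx2b; a dose of 5 ng was used for 2 libraries and of 6 ng for the others. Both groups carry the transgene. The labels describe 4 pairs of technical replicates, 2 pairs in each group, so that within the knockdown the dose and the source of the RNA cannot be told apart, nor can injection and loss of Tbx2b between the groups. The table holds 1 FPKM value (a fragment count divided by transcript length and by library size) per gene and group. No spread between libraries can be given, the depth is unknown, and the tests below are the authors' own. How those tests treated the technical pairs is not stated, so their p and q may not rest on independent libraries. The tbx2b gene itself had a log2 fold change (knockdown over wild-type) of 0.075, with an authors' test statistic of 0.149. The group values thus show no lower tbx2b RNA, and whether its splicing or protein was reduced cannot be read from them.

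All 7 transducin genes had a lower FPKM in the knockdown than in wild-type, and 2 of them, gngt1 and gngt2a, fell by the call of the authors' deposited table. The called genes encode the rod gamma subunit and the more abundant of the cone gamma subunits. Among 18954 tested genes that table calls 0.438%, 0.332% lower and 0.106% higher, while a lower FPKM without any test was found in 54.1% of tested genes. The median log2 fold change (knockdown over wild-type) of the 7 was -1.25, against -0.03 over 18800 tested genes above 0 in both groups. Individual values ran from -2.68 to -0.53. The sum over the 7 genes was 50.0 FPKM in wild-type and 18.4 FPKM in the knockdown, 2.72-fold lower. Of that difference, gngt1 made up 37.9% and gngt2a 29.3%. Fewer photoreceptor cells among the sorted cells and less transducin RNA per cell cannot be told apart in bulk RNA.

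**Figure D1:**
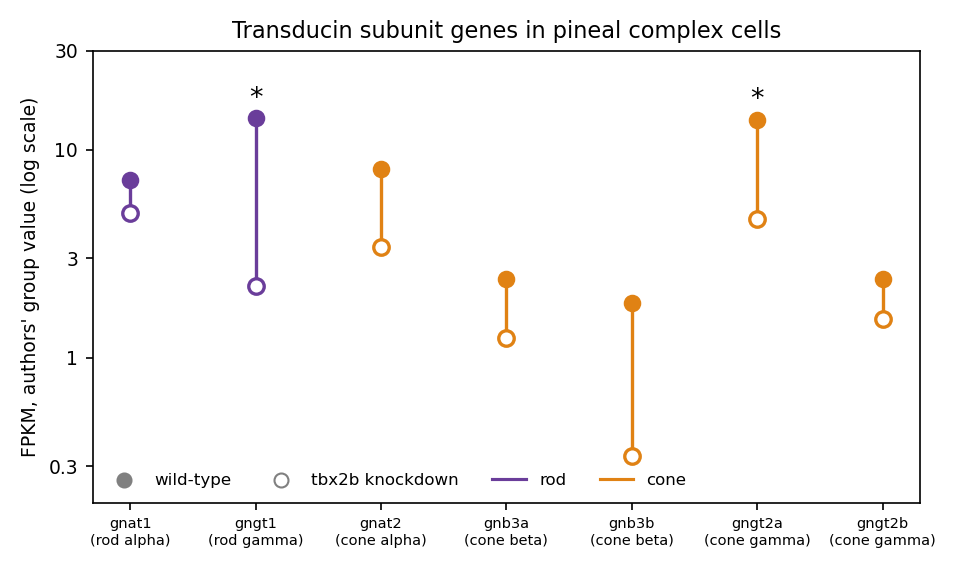
FPKM of each transducin subunit gene (authors' group values, log scale) in wild-type (filled) and tbx2b knockdown cells (open), with rod genes in purple and cone genes in orange; asterisks mark the genes called in the authors' deposited table. Every open point lies below its filled point, with the longest drops at gngt1 (14.2 to 2.21 FPKM) and gnb3b (1.83 to 0.334 FPKM); there are no error bars because the table holds 1 value per group.

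The alpha subunits bind GTP and carry the signal to PDE6. Gnat1 (ENSDARG00000044199, Zv9 chromosome 6, 42850342 to 42861712), the rod alpha subunit, had a level of 7.20 FPKM in wild-type cells and of 4.99 FPKM in knockdown cells. The difference was 1.44-fold and carried no call (p of 0.0921, q of 0.999 in the authors' deposited table). It kept the largest part of its wild-type level among the 7 genes, 69.3%. Its fold change was also the least unusual, since 11.0% of tested genes had a lower log2 fold change. Gnat2 (ENSDARG00000042529, chromosome 8, 26078532 to 26144559), the cone alpha subunit, was at 8.07 and 3.40 FPKM, 2.37-fold lower, and was not called either (p of 0.0359, q of 0.822 in the authors' deposited table). Gnat2 was thus the more abundant alpha gene in wild-type and gnat1 in the knockdown, with gnat1 to gnat2 ratios of 0.892 and 1.47. Whether these ratios differ beyond the spread between libraries could not be tested.

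The gamma subunits are short, farnesylated proteins that hold transducin at the membrane together with a beta partner. Gngt1 (ENSDARG00000035798, chromosome 19, 41817159 to 41820094), the rod gamma subunit, fell from 14.2 to 2.21 FPKM, 6.41-fold, with p of 5e-05 and q of 0.0176 in the authors' deposited table. No smaller p occurs there, and other genes, pde6g among them, share it. Of 18800 tested genes above 0 in both groups, 60 had a lower log2 fold change. Gngt1 was the most abundant of the 7 genes in wild-type and the fourth in the knockdown. The table of current gene names pairs the same identifier with the symbol GNG11, a related gamma subunit. The authors' table and RefSeq use gngt1 for a gene on chromosome 19, and a shared chromosome does not settle which gene the row holds. The authors' name is kept here, and every rod gamma value, rod sum and rod share that uses gngt1 rests on it.

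Gngt2a (ENSDARG00000010680, chromosome 3, 23384002 to 23387382), a cone gamma subunit, fell from 13.9 to 4.67 FPKM, 2.98-fold, with p of 0.0002 and q of 0.0457 in the authors' deposited table. Its paralog gngt2b (ENSDARG00000089997, chromosome 12, 3804709 to 3893083) was at 2.40 and 1.54 FPKM, 1.56-fold lower without a call (p of 0.848 in the authors' deposited table). In wild-type cells gngt2a was 5.81 times as abundant as gngt2b, and in knockdown cells 3.03 times. The gamma genes together went from 30.5 to 8.42 FPKM, 3.62-fold lower, against 1.82-fold for the alpha genes.

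The beta subunits form a stable pair with gamma, and the Gnb3 type is the cone form in mammals. Gnb3a (ENSDARG00000004358, chromosome 16, 13772549 to 13799769) was at 2.40 and 1.24 FPKM, 1.93-fold lower, and was not called (p of 0.0185, q of 0.638 in the authors' deposited table). Gnb3b (ENSDARG00000002696, chromosome 19, 5730428 to 5774356) was at 1.83 and 0.334 FPKM. This 5.46-fold difference was the nearest to that of gngt1, yet it was not called (p of 0.405 in the authors' deposited table). Gnb3b was the lowest of the 7 genes in both groups and the 1 member under 1 FPKM in the knockdown. Reads shared between the paralog pairs gnb3a and gnb3b, or gngt2a and gngt2b, could enter either row, and their part was not tested.

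Set side by side, the rod and cone sums were lower by 2.97-fold and 2.56-fold, while the rod share moved in opposite directions for alpha and gamma. The rod genes summed to 21.4 and 7.20 FPKM and the cone genes to 28.6 and 11.2 FPKM. Called lower were 1 of 2 rod genes and 1 of 5 cone genes, against 0.332% of all tested genes. Rod genes were 42.8% of the summed FPKM in wild-type and 39.1% in the knockdown. The cone sum includes the beta genes gnb3a and gnb3b, whereas the rod sum holds no beta gene, so the sums cover unlike subunits. Among the alpha genes the rod share was higher in the knockdown, 47.2% and 59.4%, and among the gamma genes it was lower, 46.5% and 26.3%. The direction for the sum changed without gngt1, where the rod share was 20.1% in wild-type and 30.8% in the knockdown. It kept its direction without gngt2a, at 59.3% and 52.5%, and with both left out the shares were 32.9% and 43.3%. None of these shares has a test, because there is 1 value per group.

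**Figure D2:**
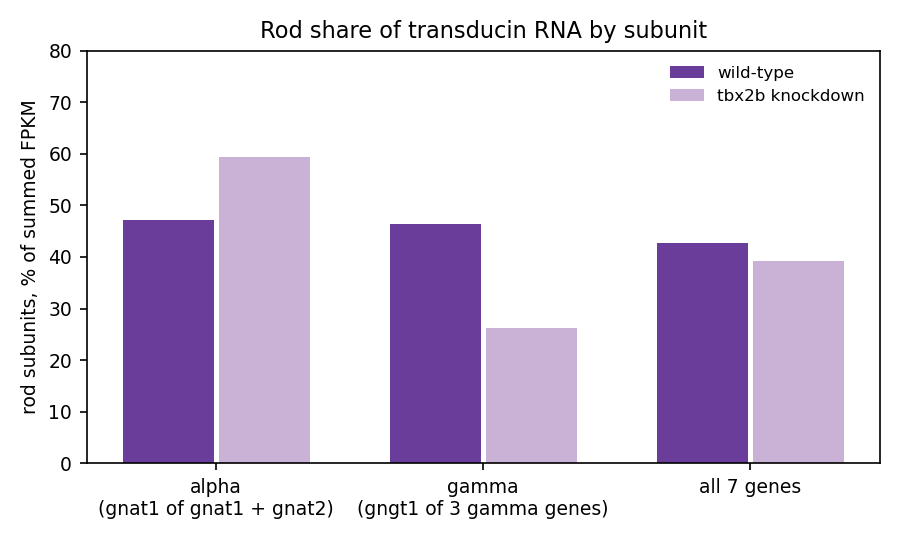
Rod genes as a percentage of the summed FPKM of the alpha genes, of the gamma genes and of all 7 genes, in wild-type (dark) and tbx2b knockdown (light) cells. The rod share is 59.4% against 47.2% for alpha and 26.3% against 46.5% for gamma; bars are single group values without error.

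Because FPKM is scaled by length, levels of subunits can be set against each other within a group. In wild-type the gamma to alpha ratio was alike in both classes, 1.97 for gngt1 over gnat1 and 2.02 for both gngt2 genes over gnat2. In the knockdown the rod ratio was 0.443, while the cone ratio was 1.82. With gngt2a alone over gnat2, the cone ratio was 1.73 in wild-type and 1.37 in the knockdown. Gngt2b and gnat2 lie in loci shared with other genes, and the part of those genes in the ratios was not tested. The cone beta to alpha ratio, both gnb3 genes over gnat2, was 0.523 in wild-type and 0.463 in the knockdown. The rod gamma to alpha ratio was thus 4.44-fold lower in the knockdown. The cone ratio was 1.11-fold lower with both gngt2 genes and 1.26-fold lower with gngt2a alone. The difference between the classes was not tested because no ratio has a spread. For the rod beta subunit, which in mammals is Gnb1, the zebrafish genes gnb1a and gnb1b serve many cell types; gnb1a was at 58.2 and 61.9 FPKM and gnb1b at 23.2 and 26.0 FPKM, and neither was called.

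The authors' test weighed the members very differently at similar folds. The deposited test statistic was -2.68 for gngt1 and -2.00 for gngt2a, the called genes, and -0.26 for gnb3b, whose log2 fold change of -2.45 lay close to the -2.68 of gngt1. Gngt2b also had a small statistic in the authors' deposited table, -0.19 at a log2 fold change of -0.64, against -0.94 for gnat1 at -0.53. Of 136 tested genes that were 4-fold or more lower, 22 were called in the authors' deposited table and 35 had a statistic above -1, so a large fold with a small statistic is not peculiar to gnb3b. Deposited p was under 0.05 for 4 of the 7 genes (gngt1, gngt2a, gnb3a and gnat2), all lower, against 3.76% of tested genes lower and 1.77% higher at that p. At q under 0.1 the called members were again gngt1 and gngt2a, against 0.506% of tested genes lower.

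Gnb3b, gngt2b and gnat2 lie in loci that the table assigns to other genes as well, while gnat1, gngt1, gngt2a and gnb3a have loci of their own. The locus of gngt2b spans 88375 bases and is shared with lsm12, at 76.9 and 77.1 FPKM, with TMEM101, at 11.0 and 10.6 FPKM, and with 1 further row. That of gnb3b spans 43929 bases and is shared with ZNF646, at 65.7 and 58.2 FPKM, and that of gnat2 with ampd2, at 7.01 and 6.32 FPKM. The called genes have the shortest loci, 2936 bases for gngt1 and 3381 bases for gngt2a. Whether reads of overlapping genes enter the values of the 3 members with shared loci was not tested. Over the 4 members with loci of their own the median log2 fold change was -1.26.

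**Figure D3:**
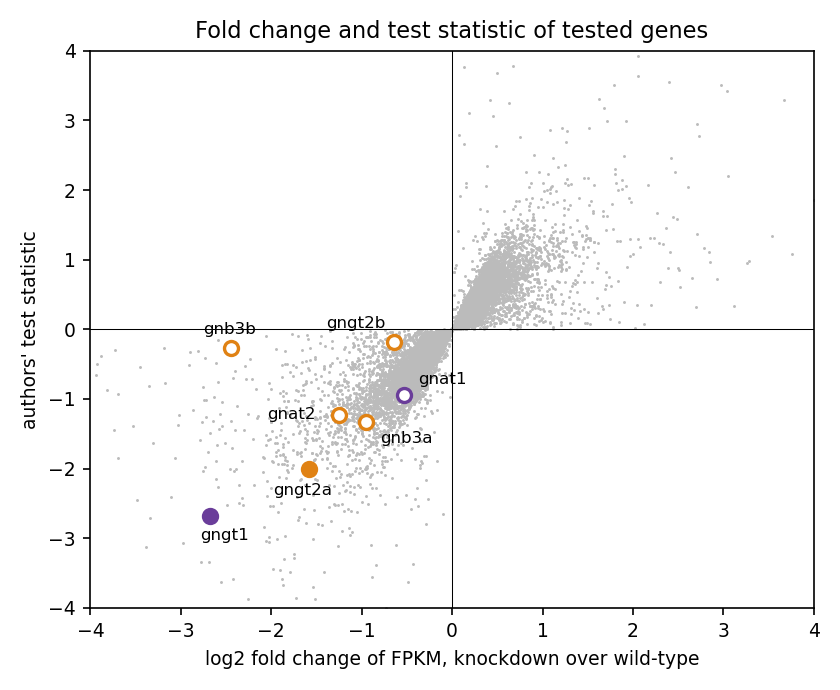
Log2 fold change of FPKM (knockdown over wild-type) against the authors' test statistic for 18651 tested genes (grey), with the rod (purple) and cone (orange) transducin genes; filled circles are called, and 149 tested genes lie outside the axes. Gngt1 and gngt2a have statistics of -2.68 and -2.00, whereas gnb3b, almost as far left as gngt1, has -0.26.

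The list medians of other heterotrimeric G protein subunits, which serve receptors of all kinds, lay between -0.09 and 0.16. None of their tested genes was called. Only 0.438% of all tested genes were called, so lists this short would mostly hold none. Of 18 tested alpha genes other than transducin none was called, and their median log2 fold change was -0.09. Gnao1a, the alpha subunit common in neurons, was at 38.5 and 38.1 FPKM, gnai1 at 30.6 and 32.4 FPKM and gnaia at 31.3 and 37.6 FPKM. None of 5 tested beta genes was called (median 0.14); besides gnb1a and gnb1b the most abundant was gnb2, at 7.12 and 7.83 FPKM. None of 7 tested gamma genes was called (median 0.16). The most abundant gamma genes were gng5, at 152 and 170 FPKM, gng2, at 47.3 and 61.6 FPKM, and gng3, at 42.5 and 54.8 FPKM. No gene of these 3 lists had a deposited p under 0.05, against 3.76% of tested genes lower and 1.77% higher at that p. With these lists as the rest of each family, transducin genes held 5.79% of the alpha FPKM in wild-type and 3.17% in the knockdown. The shares were 4.20% and 1.50% for the beta FPKM, and 10.0% and 2.59% for the gamma FPKM. Gnaz, gna12a, gnb4a, gnb4b, gng4, gng10 and gng12b had no matching row, so these shares may be too high. Gng11 had no row apart from that of gngt1, whose identifier carries the symbol GNG11 among current names. That row was counted as transducin, so the gamma shares rest on the authors' name for it.

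Upstream of transducin, the matched opsin rows had low FPKM. Of 28 matched opsin rows 7 were tested, and all 7 had a lower FPKM in the knockdown, with a median log2 fold change of -0.69 and none called. Over all tested genes 54.1% had a lower FPKM and 0.438% were called, so a list of 7 would mostly hold no call. The blue cone opsin opn1sw2 was at 1.36 and 1.12 FPKM and neuropsin opn5 at 1.34 and 0.467 FPKM. Opn6a (listed as zgc:158340) was at 0.699 and 0.546 FPKM, in a locus of 341070 bases that other rows share. The rod opsin rho was at 1.04 and 0.0268 FPKM, with p of 0.208 in the authors' deposited table. Parietopsin (listed as CR391963.2 and matched by identifier), an opsin of the reptilian parietal eye, was at 0.608 and 0.188 FPKM, with p of 0.0460 and q of 0.880 in the authors' deposited table. Exo-rhodopsin, the main rod-like opsin of the pineal organ, had no matching row and is not analysed here. Parapinopsina and opn9 had none either, so the opsin total of these cells is unknown. The transducin genes thus stood above every matched opsin row in wild-type cells.

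Downstream, transducin alpha acts on PDE6, whose tested subunit genes had lower FPKM as well. All 5 tested rows had a lower FPKM, pde6d by very little, and 1 was called, pde6g. Among all tested genes 54.1% had a lower FPKM and 0.332% were called lower. The median log2 fold change of the 5 rows was -1.43. Pde6g, which encodes an inhibitory subunit that transducin alpha binds, was at 33.9 and 12.5 FPKM, with q of 0.0176 in the authors' deposited table. Its ratio to the summed transducin genes was 0.678 in wild-type and 0.683 in the knockdown. The cone inhibitory subunit pde6h was at 4.87 and 1.70 FPKM, the rod catalytic subunit pde6a at 1.57 and 0.754 FPKM, and the cone catalytic subunit pde6c at 1.69 and 0.412 FPKM, none of them called. Pde6h and pde6c lie in shared loci, 369661 bases long for pde6c, and whether reads of overlapping genes enter their values was not tested. Pde6d, a carrier of prenylated proteins found in many cells, was at 17.0 and 16.9 FPKM.

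The genes that switch transducin off or handle its subunits showed no call, where 0.438% of all tested genes were called. Gnb5a and gnb5b are in the GTPase-accelerating list and were also counted among the other beta genes above. The GTPase-accelerating list (6 tested) had a median log2 fold change of -0.09, with rgs9a, the photoreceptor RGS protein, at 3.78 and 3.33 FPKM, gnb5b, its beta-type partner, at 5.31 and 4.20 FPKM, and rgs7 at 3.59 and 3.00 FPKM. The handling list (12 tested) holds chaperones, lipid-modifying enzymes and carriers of G protein subunits, and its median was -0.09. Pdcl, a phosducin-like chaperone of beta and gamma assembly, was at 44.9 and 48.4 FPKM, and the farnesyltransferase genes had 33.7 and 34.9 FPKM (fnta) and 32.8 and 31.6 FPKM (fntb). Pdcb, a phosducin that binds the beta and gamma pair in photoreceptors, was at 3.40 and 2.19 FPKM, with p of 0.0777 in the authors' deposited table. The lowest log2 fold change of the list, -3.89, was that of rce1b, a protease of prenylated proteins, at 0.729 and 0.0493 FPKM, with p of 0.313 in the authors' deposited table.

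**Figure D4:**
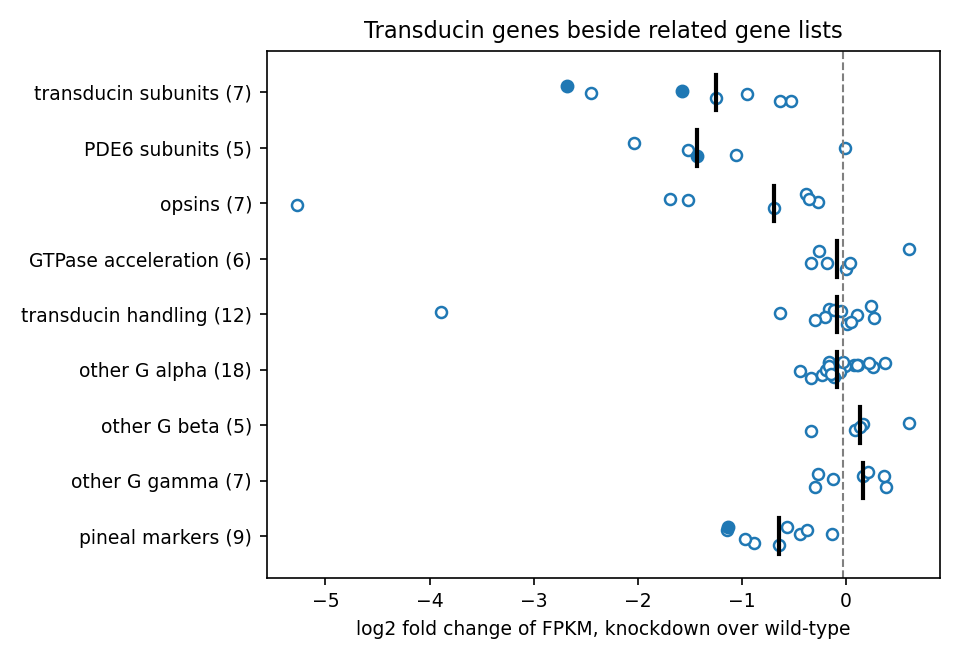
Log2 fold change of FPKM (knockdown over wild-type) for the tested genes of each list, with the number of genes in parentheses; filled points are called, black bars are list medians, and the dashed line is the median of all tested genes, -0.03. All 7 transducin points lie left of the dashed line, from -2.68 to -0.53, while points of the other G protein lists lie on both sides of it.

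Pineal markers were lower along with transducin, though to unequal degrees. All 9 matched pineal-defining genes were present, from 1.23 FPKM for tph2 to 238 FPKM for flh in wild-type, and all 9 were lower in the knockdown, 1 of them called (otx5, at 16.9 and 7.71 FPKM), with a median log2 fold change of -0.65. Their log2 fold changes ran from -1.14 for nr2e3 to -0.13 for aanat2, which was at 3.43 and 3.13 FPKM. The deposited p was under 0.05 for 5 of these 9 genes and not for crx, aanat2, bsx and tph2. Flh, whose regulatory sequence drives the reporter, was at 238 and 129 FPKM (q of 0.0986 in the authors' deposited table). Relative to flh, the log2 fold change was -1.79 for gngt1, -1.56 for gnb3b, -0.69 for gngt2a, -0.36 for gnat2, -0.06 for gnb3a, 0.25 for gngt2b and 0.36 for gnat1. Of the other markers, 8 of 10 tested retinal progenitor genes were lower (summed FPKM over the list 284 and 245, median -0.31, none called), as were all 9 tested pigment genes (165 and 52.3, median -1.22, 4 called) and all 8 tested lens genes (summed FPKM over the list 49.1 and 24.5, median -1.23, none called). Of 12 tested erythroid rows 3 were called lower. Over the 10 of these above 0 in both groups the median was -3.17, with 8 lower and 2 higher. Endothelial genes had a median of 0.88, with 4 called higher. The part of these cells in the transducin values was not tested. For comparison, 54.1% of all tested genes had a lower FPKM without any test, and 3.76% were lower at a deposited p under 0.05. The authors' flag called 0.332% of all tested genes lower and 0.106% higher.

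Over the pair of group values, the named genes most like gngt1 were TYRP1 (2 of 2), HIST2H2AB (20 of 30) and rlbp1b, at distances of 0.29, 0.39 and 0.78 on log2(FPKM + 0.1). A pigment cell enzyme, a histone of a family of near-identical copies and a retinaldehyde-binding protein are thus nearest to it. TYRP1 (2 of 2) was called lower but is not among the pigment genes counted above. For gngt2a they were socs8, rdh5 and pou5f1, at distances of 0.24, 0.28 and 0.31. Likeness over 2 values means only a similar level in each group.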

How the data were processed

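The submitters' processing notes name Bowtie2, TopHat2, Cuffdiff, CASAVA (1.8.2), FastQC (0.10.0), Trimmomatic (0.32) and build Zv9; of settings and gene annotation nothing is stated in these sources. The deposited FPKM values are 1 per group and gene, per the file headers, and the deposited log2 fold change sets knockdown over wild-type. The deposited p-value and q-value, and the test statistic (a score), are those of the authors' test, per the file headers; a call is the authors' flag at q under 0.05. Folds, sums, shares and medians were computed from FPKM with pandas 2.3.3 and numpy 2.4.6; the q adjustment and list median were tested on simulated data. List genes were matched by symbol (156), by identifier (8) or by RefSeq synonym (5), and 20 entries were not matched. Coordinates are the file's. Named genes were all 7 members, called genes and the 3 most abundant tested genes of each cascade or G protein list, and the 3 genes nearest each called member; others (such as rho, parietopsin, pde6a, pde6c, pdcb, rce1b, and rows sharing a locus) were chosen after their values were seen. Members and lists were chosen with earlier results of these data known. Alternatives were other pseudocounts, scalings and q thresholds. A promoter motif search was not run.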

Additional observations from a re-analysis of the deposited data

How the results depend on the processing

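No paired analysis was possible because the table holds group values without replicate numbers; leaving out libraries was not run for the same reason. At q under 0.01 the count of transducin genes called lower was 0 in place of 2. That outcome was fixed in advance. The smallest p of the authors' test, 5e-05, carries q of 0.0176, so no tested gene can pass. The count was 2 at q under 0.1 and adjusted over 16158 genes at 1 FPKM or more. The median log2 fold change of -1.25 was -1.04 on log2(FPKM + 1), -1.22 on log2(FPKM + 0.1), -1.14 rescaled to TPM (a shift of 0.106 for every gene) and -1.22 centred on genes at 1 FPKM or more. The difference in rod share of summed FPKM, -3.61 percentage points (knockdown minus wild-type), turned to 10.5 without gngt1 and gngt2a. The remaining settings were chosen after seeing the data. Over members with loci of their own the count was 2, the median -1.26 and the rod share difference -1.78; that difference turned to 10.7 without gngt1 alone and was -6.80 without gngt2a alone. Centred on the pineal markers the median was -0.60, gnat1 turned to 0.12 and gngt2b to 0.0064. That centre, -0.646, is the value of lhx4, which, like bhlhe22, was not among the pineal markers first planned. Gngt2b, at -0.640, lies so near it that its sign depends on which markers are listed. Depth is unknown, so the error of low genes such as gnb3b cannot be given.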
